A study of Homo sapiens with 12 samples.

Results

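The genes described here are 56 genes of the mitotic spindle, the kinetochore and the G2/M transition, followed as exon and intron reads in the CCRF-CEM line of human leukemia T lymphoblasts. They were picked by gene name, with earlier results of these data known, from 43828 gene places listed across the 12 deposited tables. All 56 were listed in every table. Parent cells, which carry SLFN11 and are labelled wild-type, and cells labelled SLFN11 knockout were either kept in DMSO, the solvent, or exposed to camptothecin (100 nM, 4 h), giving 4 groups of 3 libraries. Camptothecin poisons topoisomerase I and stalls replication, and SLFN11 is a helicase-like protein that sensitizes cells to such drugs. All groups grew in the same medium with serum. The labels state neither the method of the knockout, nor if it is 1 clone, nor if replicates were separate cultures. The p-values therefore measure the spread between libraries, which may be technical.

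Most of these genes are transcribed mainly in late S, G2 and M phase. Cyclin B with CDK1 drives entry into mitosis, the Polo and Aurora kinases build the spindle, kinetochore proteins attach chromosomes to microtubules, and the spindle checkpoint holds the anaphase-promoting complex back until all chromosomes are attached. Many of their promoters carry a cell cycle genes homology region (CHR), which the MuvB complex binds, together with CCAAT boxes, which NF-Y binds. With the MYBL2 and FOXM1 proteins MuvB activates such genes, and as part of the DREAM complex it represses them. In bulk RNA, fewer cells in a phase and less RNA per cell cannot be told apart.

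The promoters below are examples. PLK1, CDC20, PSRC1 and CCNB1 fell furthest in their groups by role in parent cells. The same holds for KIF20A, BUB1, CENPA, INCENP and ECT2, which are not shown. With all libraries, exon reads of MKI67 and ZWINT did not pass the test in either genotype, nor did those of MYBL2, which is not shown. Without knockout camptothecin replicate 3 MKI67 fell in both genotypes, and without parent control replicate 1 ZWINT rose in both. Each printed stretch is the 120 bases before the transcription start, 5′ to 3′ on the gene's strand, from RefSeq on GRCh38.p14. Capitals mark the CHR letters TTTGAA, the variant TTCGAA, the CCAAT box, and these read on the other strand, where the CHR becomes TTCAAA and the CCAAT box becomes ATTGG.
PLK1, chr16:23678769-23678888, plus strand: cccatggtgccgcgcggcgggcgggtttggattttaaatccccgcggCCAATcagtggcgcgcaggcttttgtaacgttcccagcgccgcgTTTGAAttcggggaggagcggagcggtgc
CDC20, chr1:43358861-43358980, plus strand: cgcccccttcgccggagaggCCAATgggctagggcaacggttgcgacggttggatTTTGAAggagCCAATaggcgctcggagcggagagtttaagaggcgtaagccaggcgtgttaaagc
PSRC1, chr1:109283146-109283265, minus strand: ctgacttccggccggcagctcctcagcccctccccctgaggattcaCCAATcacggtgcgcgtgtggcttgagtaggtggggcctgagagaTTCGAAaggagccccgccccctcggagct
CCNB1, chr5:69167030-69167149, plus strand: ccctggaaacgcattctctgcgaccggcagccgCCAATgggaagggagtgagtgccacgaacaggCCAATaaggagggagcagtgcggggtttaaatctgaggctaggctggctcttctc
MKI67, chr10:128126424-128126543, minus strand: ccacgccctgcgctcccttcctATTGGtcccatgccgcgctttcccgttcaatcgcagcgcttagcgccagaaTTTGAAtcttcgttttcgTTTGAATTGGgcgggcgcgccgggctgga
ZWINT, chr10:56361260-56361379, minus strand: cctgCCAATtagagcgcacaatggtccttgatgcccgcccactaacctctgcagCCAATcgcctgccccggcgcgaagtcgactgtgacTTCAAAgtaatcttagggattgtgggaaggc

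A CHR match began 29 bases before the start in PLK1, at the same distance in MKI67 beside a second match, and 31 bases before it in ZWINT, where it reads TTCAAA. PSRC1 holds the variant TTCGAA at that distance of 29 bases. In CDC20 the CHR lies 65 bases before the start, between a pair of CCAAT boxes. CCNB1 holds a pair of CCAAT boxes and neither TTTGAA nor TTCGAA in the window searched. Other forms of the CHR were not searched, so CCNB1 may hold one. In MKI67 the CHR nearest the start overlaps an ATTGG. A match is a description of letters and not a measured binding site.

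A promoter entry was matched for 48 of the 56 genes. For 7 genes with several entries only the first listed was used, so other starts were not searched. Entries were not used for AURKA, BIRC5, BUB3, FOXM1, KNTC1, TPX2, TTK and UBE2C. Of the 48, 33 (68.8%) held TTTGAA on either strand in the 300 bases from 250 before to 50 after the start, against 15.4% of all 27305 promoters. Near the start, from 60 bases before to 20 after it, 25 genes (52.1%) had the match, against 4.0% of all promoters. CCAAT was found in 38 (79.2%, against 35.7%), at 2 or more places in 24 of the 48 (11.3% of all promoters), and together with TTTGAA in 29 (60.4%, against 6.1%). TTCGAA stood in 3 promoters (6.2%, against 1.5%) and the E2F letters GGCGGGAA in 4 (8.3%, against 3.2%).

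Parent control replicate 1 was the deepest library, with 135592046 exon reads against 42439957 to 63606344 in all others, and its library name has another pattern. Its counts stood apart from the other parent controls (chi-square divided by its degrees of freedom, 193.4 and 152.8, against 4.982 to 18.77 for all other pairs of a group). SLFN11 RNA in controls was 112.3 ± 4.93 CPM (exon read counts scaled to a common depth with TMM factors, mean ± SD, n = 3 libraries) for the parent and 86.92 ± 1.58 CPM for the knockout (log2 -0.37 ± 0.06 SE, edgeR adjusted p = 0.000133). Counts over a whole gene do not show a small deletion or insertion, so this level checks the knockout label only in part. All 10 T lymphoblast markers passed 1 CPM in some group, and their sum ran from 1250 to 1300 CPM in parent controls and 944 to 957 CPM after camptothecin, and from 1520 to 1530 and 1240 to 1370 CPM in knockout cells. No myeloid (of 5) or erythroid (of 4, 3 of them listed) marker passed it, 2 of 5 B-lineage markers (4 listed) did with sums of 26.2 to 45.5 CPM, and 1 of 5 epithelial and fibroblast markers did with sums of 1.12 to 8.38 CPM. The part of these markers in the results was not tested.

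All 56 genes passed the filters on low counts for exon and for intron reads. Per exon length, untreated parent cells held most RNA of MYBL2 (134.9 ± 17.9 exon reads scaled by depth and exon length, RPKM), a transcription factor that works with MuvB, and of NUSAP1 (112.6 ± 35.6 RPKM), which bundles spindle microtubules. TPX2, the activator of Aurora A on the spindle, stood at 102.1 ± 24.0 RPKM. MYBL2 stood above TPX2 in each of these libraries, at 155.4, 122.6 and 126.6 against 129.8, 87.9 and 88.5 RPKM, while NUSAP1 at 153.7, 93.2 and 90.9 RPKM was close to MYBL2 in parent control replicate 1 and nearer TPX2 in the others. At the low end were CDC25C (6.31 ± 0.83 RPKM), a phosphatase that activates CDK1, KIF18A (9.79 ± 1.5 RPKM), a kinesin that limits chromosome movements, and SPC25 (10.9 ± 1.67 RPKM), a subunit of the NDC80 complex.

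The first question was how these genes changed within 4 h of camptothecin in parent cells. Exon reads of 50 of the 56 fell (edgeR quasi-likelihood test, adjusted p below 0.05) and none rose. Of all 23546 genes tested, 17.1% fell and 16.8% rose. The median log2 change of the 56 genes was -0.75, against 0.01 over all genes tested. Of the 50 genes, 19 fell at least 2-fold, a drop found in 2.43% of all genes. The 3 treated libraries lay below all 3 controls for 51 of the 56, against 22.1% of all genes. Without parent control replicate 1, 49 genes fell and 2 rose (CDC25C and ZWINT), against 17.4% and 19% of all genes, and the median was -0.62.

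In knockout cells 52 of the 56 fell and none rose, against 9.28% and 7.3% of all genes tested. The median log2 change was -0.75, against 0.02 over all genes, and 18 genes fell at least 2-fold (1.17% of all genes). Treated and control libraries did not overlap for 52 genes that were lower (19.6% of all genes) and for 1 that was higher, ZWINT (18.9%). Without parent control replicate 1, 52 fell and 1 rose (ZWINT), against 14.3% and 13% of all genes. Across the 56 genes the parent and knockout changes had a Pearson r of 0.92 and a Spearman rho of 0.91, given as a description. The genes are not independent, and all share the same libraries within a genotype. The change had little relation to gene length (r = 0.18 in parent and 0.16 in knockout cells) or to the untreated level per length (r = -0.10 and -0.01).

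**Figure D1:**
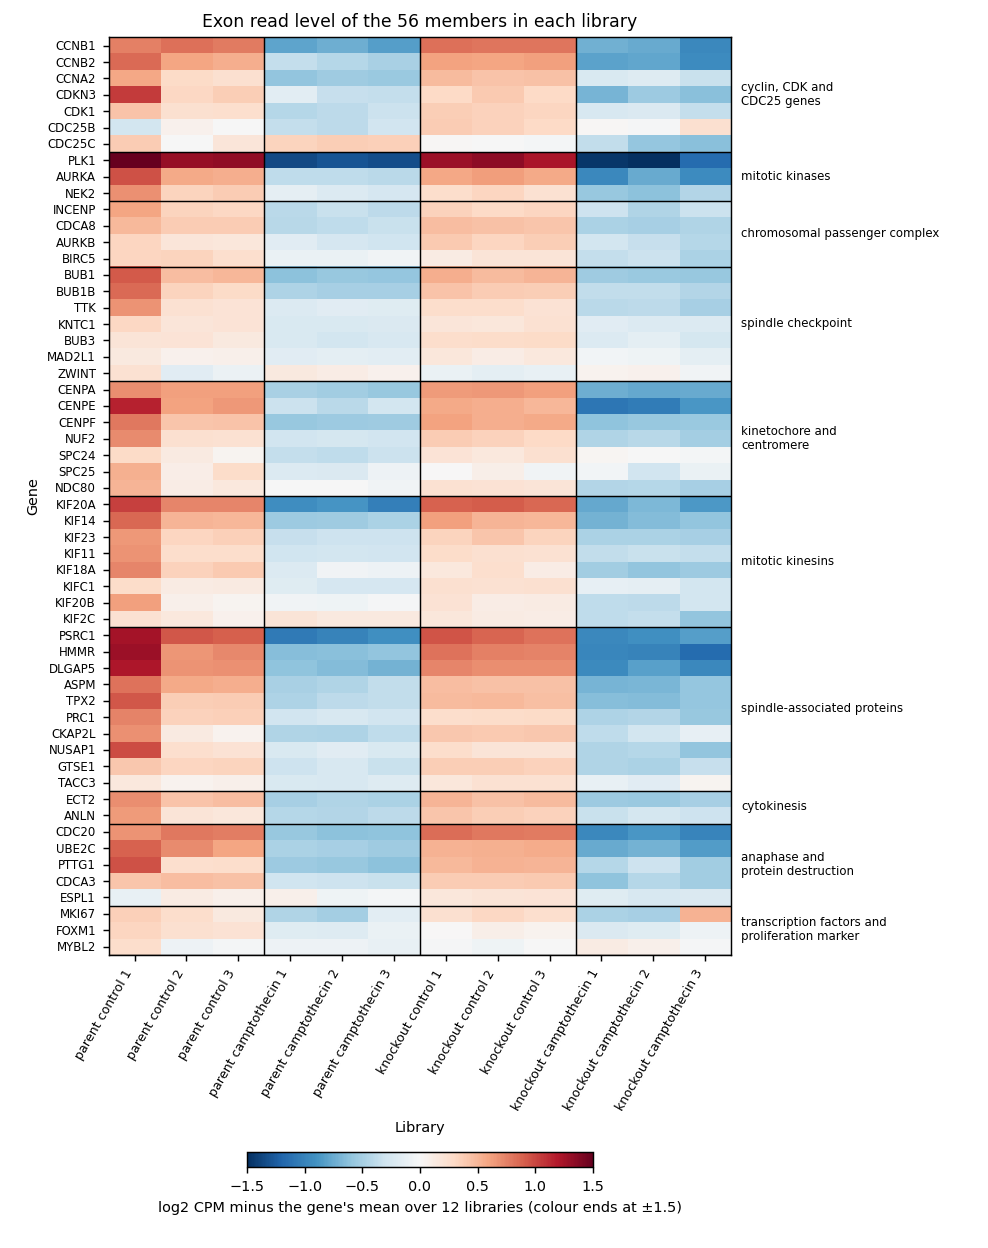
Exon read level of each of the 56 genes (vertical axis, grouped by role) in each of the 12 libraries (horizontal axis), coloured as log2 CPM minus the mean of the gene over all libraries, with colours ending at ±1.5. Most genes are red in both control groups and blue in both camptothecin groups, parent control replicate 1 is the reddest column for many genes, and CDC25C, ESPL1, KIF2C, MYBL2 and ZWINT depart from the pattern.

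Among the mitotic kinases all 3 fell in both genotypes. PLK1, the Polo-like kinase that acts from mitotic entry to cytokinesis (hg19 chromosome 16, 23688976 to 23701687), had the largest change of the 56. It stood at 95.4, 79.3 and 80.3 CPM in parent controls and at 12.56, 13.05 and 12.75 CPM after camptothecin. Knockout controls held 78.1, 81.4 and 74.7 CPM and treated knockout cells 11.6, 11.3 and 14.4 CPM. Every treated library was thus far below every control, a 6.65-fold fall in parent cells (log2 -2.73 ± 0.09 SE, adjusted p = 2.24e-12) and a 6.28-fold fall in knockout cells (-2.65 ± 0.09, adjusted p = 1.74e-11; edgeR). AURKA, the Aurora kinase of the spindle poles, fell by 1.09 in parent and by 1.48 in knockout cells on the log2 scale. NEK2, a kinase that separates centrosomes, stood at 52.4 to 67.0 CPM in parent controls and 34.8 to 37.7 CPM after treatment, and at 48.48 to 51.95 and 27.1 to 30.7 CPM in knockout cells, without overlap in either genotype.

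Of the 7 cyclin, CDK and CDC25 genes, 6 fell in parent and 7 in knockout cells. CCNB1, cyclin B1 (chromosome 5, 68462836 to 68474071), went from 187.1, 196.2 and 190.3 CPM to 63.9, 66.7 and 62.6 CPM in parent cells, and from 196.5, 194.0 and 194.0 CPM to 67.1, 65.4 and 56.4 CPM in knockout cells. Every treated library lay below every control, and the fall was 2.97-fold in parent and 3.09-fold in knockout cells (log2 -1.57 ± 0.07 and -1.63 ± 0.07 SE; edgeR adjusted p = 2.98e-11 and 5.43e-11). CCNB2, the second B-type cyclin, fell by 1.09 and 1.44, CCNA2, the S and G2 cyclin, by 0.93 and 0.70, CDKN3, a phosphatase that acts on CDK1, by 0.91 and 0.95, and CDK1 by 0.69 and 0.62 (log2, parent and knockout). CDC25B, a CDK1-activating phosphatase, went from 72.0, 91.4 and 86.9 CPM to 67.8, 66.4 and 71.2 CPM in parent cells and from 113.0, 110.7 and 106.9 CPM to 88.0, 86.1 and 102.9 CPM in knockout cells. These falls of 0.28 (edgeR adjusted p = 0.0149) and 0.26 (adjusted p = 0.0484) did not pass the test with library size alone (-0.17 and -0.10) and under several other alternatives.

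All 4 genes of the chromosomal passenger complex fell in both genotypes. This complex, with Aurora B as its kinase, corrects faulty attachments and acts again in cytokinesis. Its scaffold INCENP stood at 141.4 to 172.5 CPM in parent controls and 86.3 to 90.2 CPM after camptothecin, and at 140.4 to 145.1 and 83.3 to 92.0 CPM in knockout cells. CDCA8 (borealin), which targets the complex to centromeres, went from 83.9 to 90.8 CPM in parent controls to 48.43 to 51.18 CPM, a log2 change of -0.80 ± 0.06 SE. BIRC5 (survivin) fell least, by 0.39 in parent and by 0.55 in knockout cells. Only 25.2% of its exon reads over the 12 libraries were unique to the gene.

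In the spindle checkpoint, 6 of 7 genes fell in each genotype. BUB1, a checkpoint kinase of the kinetochore, went from 250.8, 181.8 and 186.6 CPM to 86.5, 89.0 and 88.0 CPM in parent cells and from 183.6 to 193.2 CPM to 89.2 to 91.1 CPM in knockout cells. That is a 2.35-fold fall in parent and a 2.09-fold fall in knockout cells (log2 -1.23 ± 0.09 and -1.06 ± 0.09 SE). BUB1B, TTK, KNTC1, BUB3 and MAD2L1, which hold back anaphase, fell in parent cells, with log2 changes from -1.002 (BUB1B) to -0.25 (MAD2L1). The exception was ZWINT, a kinetochore protein that docks the RZZ complex (chromosome 10, 58116988 to 58121035). It stood at 163.0, 124.0 and 130.7 CPM in parent controls and 154.6, 150.2 and 146.0 CPM after camptothecin, with overlap, and at 125.6 to 130.3 and 133.9 to 145.4 CPM in knockout cells, without overlap. Its log2 changes of 0.11 and 0.14 did not pass the test (edgeR adjusted p = 0.343 and 0.293). Without parent control replicate 1 they were 0.24 (adjusted p = 8.2e-05) and 0.15 (adjusted p = 0.0077).

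Kinetochore and centromere genes fell in 7 of 7 cases in parent and 6 of 7 in knockout cells. CENPA, the histone H3 variant that marks centromeres, dropped from 35.2 to 37.2 CPM to 15.5 to 16.4 CPM in parent cells and from 35.0 to 35.9 CPM to 13.5 to 13.8 CPM in knockout cells, with narrow groups far apart (log2 -1.17 ± 0.06 and -1.38 ± 0.06 SE). CENPE, a kinetochore motor, and CENPF, a large kinetochore protein of G2, fell by 1.16 and 1.10 in parent and by 1.53 and 1.15 in knockout cells. The 4 subunits of the NDC80 complex, which grips microtubules, changed less evenly. NDC80 fell by 0.30 in parent and 0.67 in knockout cells, NUF2 by 0.69 and 0.80, SPC24 by 0.52 and 0.21, and SPC25 by 0.49 in parent cells. In knockout cells SPC25 had 15.5 to 17.2 CPM in controls and 13.2 to 15.6 CPM after treatment, which overlap (log2 -0.16, adjusted p = 0.367). With total gene reads, which add intron reads, the SPC25 changes were 0.02 in the parent (not called) and 0.26 in the knockout (adjusted p = 0.042). The SPC24 knockout call (adjusted p = 0.037) was lost with library size alone (-0.05), with no filter on low counts, and without any library other than parent control replicates 1 and 3 (adjusted p up to 0.14). None of these 4 differences between genotypes passed the test (adjusted p = 0.0529 for SPC24 to 0.724 for NUF2).

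Of the 8 mitotic kinesins, 7 fell in parent and 8 in knockout cells. KIF20A, the motor that carries the passenger complex to the central spindle (chromosome 5, 137514407 to 137523403), went from 166.6, 135.1 and 135.5 CPM to 42.84, 44.18 and 40.15 CPM in parent cells, and from 151.1, 152.5 and 147.8 CPM to 47.97, 51.04 and 44.88 CPM in knockout cells. Treated and control libraries were far apart in both, a 3.44-fold and a 3.14-fold fall (edgeR adjusted p = 7.48e-11 and 3.67e-10). KIF14, KIF23, KIF11, KIF18A, KIFC1 and KIF20B followed, with log2 changes from -1.15 (KIF14) to -0.32 (KIF20B) in parent and from -1.19 (KIF14) to -0.41 (KIFC1) in knockout cells. The call of KIF20B in parent cells was weak (adjusted p = 0.0458) and did not hold without parent control replicate 1 (-0.10, adjusted p = 0.084). KIF2C, the microtubule-depolymerizing kinesin of the centromere, is taken up with the genotype differences.

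All 10 spindle-associated proteins fell in both genotypes. PSRC1, a microtubule regulator (chromosome 1, 109822177 to 109825807), went from 39.19, 31.45 and 30.55 CPM to 7.9, 8.2 and 8.7 CPM in parent and from 31.6, 30.1 and 28.9 CPM to 8.5, 8.7 and 9.3 CPM in knockout cells. That was the second largest change in parent cells, 4.10-fold, and 3.42-fold in knockout cells (log2 -2.04 ± 0.10 and -1.78 ± 0.10 SE). HMMR, which anchors spindle poles, fell 2.91-fold in parent and 3.52-fold in knockout cells, and DLGAP5, which stabilizes kinetochore fibres, 2.9-fold and 3.07-fold. Both were high in parent control replicate 1, at 155.0 CPM for HMMR against 101.2 and 104.7, and at 219.2 CPM for DLGAP5 against 150.8 and 152.4. TACC3, a stabilizer of kinetochore fibres, fell least, from 114.2 to 123.1 CPM to 93.2 to 96.3 CPM in parent cells (log2 -0.32 ± 0.06 SE).

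The pair of cytokinesis genes fell alike. ECT2, the activator of RhoA at the cleavage furrow, dropped 2.02-fold in parent and 2.01-fold in knockout cells, from 179.2 to 217.0 CPM to 94.4 to 97.6 CPM and from 180.6 to 189.9 CPM to 90.9 to 94.8 CPM. ANLN (anillin), which links the actin ring to the membrane, went from 174.0, 127.6 and 125.7 CPM to 82.9, 82.4 and 85.1 CPM in parent cells. Its fall was 1.71-fold there and 1.60-fold in knockout cells.

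Genes of anaphase and protein destruction fell in 4 of 5 cases in parent and 5 of 5 in knockout cells. UBE2C, the ubiquitin-conjugating enzyme of the anaphase-promoting complex, fell 2.35-fold and 2.47-fold, and PTTG1 (securin), the inhibitor of separase, 2.16-fold and 1.90-fold. CDCA3, which triggers destruction of WEE1, fell 1.69-fold and 1.87-fold. CDC20, the complex's activator in mitosis, and ESPL1, separase itself, differed between the genotypes.

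Among the transcription factors and the proliferation marker, FOXM1, an activator of G2/M genes, fell by 0.42 in parent and by 0.20 in knockout cells. The knockout call (edgeR adjusted p = 0.0282) was lost with library size alone (-0.05) and with no filter on low counts. It was also lost without any 1 knockout control or knockout camptothecin replicate 1 or 2. Of FOXM1 exon reads, 47.0% were unique to the gene. MYBL2 exon reads, at 416.8, 328.9 and 339.5 CPM in parent controls and 322.4 to 329.1 CPM after treatment, and at 332.9 to 346.7 and 343.2 to 378.9 CPM in knockout cells, overlapped in both and did not pass the test (log2 -0.15 and 0.09). MKI67, which codes for the Ki-67 antigen of dividing cells, had 635.7, 599.5 and 553.0 CPM in parent controls and 363.6, 350.9 and 445.4 CPM after camptothecin, a change of -0.62 without overlap that missed the threshold (edgeR adjusted p = 0.0765). In knockout cells it had 589.6, 616.3 and 591.7 CPM and then 359.7, 353.3 and 714.3 CPM. Knockout camptothecin replicate 3 was alone above all controls, and without it MKI67 fell by 0.75 (adjusted p = 7.6e-05) in knockout and by 0.63 (adjusted p = 3.6e-05) in parent cells. That library also had the highest share of intron reads, 33.55% against 26.31% to 30.48% in the others. Its part in the MKI67 value was not tested.

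**Figure D2:**
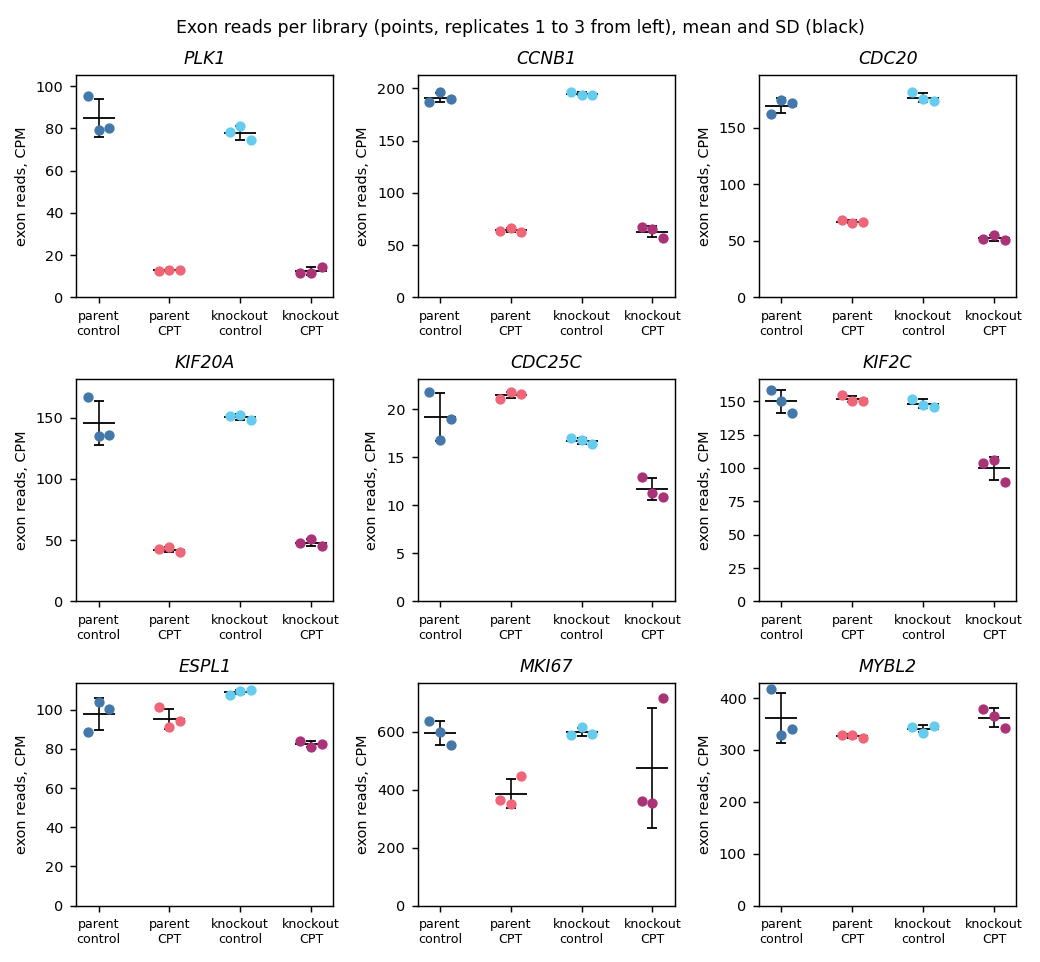
Exon reads in CPM (vertical axis, from 0) for 9 genes in the 4 groups (horizontal axis, CPT is camptothecin), each point a library, with mean and SD in black. PLK1, CCNB1, CDC20 and KIF20A fall in both genotypes, CDC25C, KIF2C and ESPL1 fall in knockout cells while parent groups overlap, and MKI67 has 1 treated knockout library at 714.3 CPM.

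The second question was whether the response differed between genotypes. The difference of responses (knockout minus parent, exon reads) was called for 4 of the 56, all lower in knockout cells, against 4.47% of all genes lower and 1.84% higher. For the other 52 the difference ran from -0.39 (AURKA, edgeR adjusted p = 0.0892) to 0.33 (SPC25, adjusted p = 0.222) on the log2 scale. The median over the 56 was -0.04. A missed threshold does not show equal responses.

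CDC20 fell in both genotypes and further in knockout cells. It stood at 162.2, 174.6 and 172.2 CPM in parent controls and 68.27, 66.02 and 66.57 CPM after camptothecin, and at 181.4, 175.2 and 173.3 CPM and then 51.6, 55.3 and 50.8 CPM in knockout cells. Controls overlapped, and every treated knockout library lay below every treated parent library. The falls were 2.53-fold and 3.36-fold, a difference of -0.41 ± 0.08 SE (edgeR adjusted p = 0.00515), and the call held in all alternatives run for it.

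KIF2C (chromosome 1, 45205489 to 45233438) fell in knockout cells and not detectably in parent cells. Its values were 158.3, 150.4 and 141.2 CPM in parent controls, 154.4, 150.1 and 150.1 CPM in treated parent cells, 151.9, 146.9 and 145.7 CPM in knockout controls and 103.7, 105.7 and 89.5 CPM in treated knockout cells. Treated knockout libraries alone stood apart. The log2 change was 0.01 ± 0.07 SE in parent and -0.57 ± 0.07 SE in knockout cells, a difference of -0.59 ± 0.10 SE (edgeR adjusted p = 0.000989). With reads unique to the gene, which were 50.5% of its exon reads, the difference was also -0.59.

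ESPL1 (chromosome 12, 53662082 to 53687426) had the smallest called difference. It stood at 88.4, 104.0 and 100.6 CPM in parent controls and 101.2, 91.2 and 94.1 CPM after treatment, which overlap, and at 107.7, 109.5 and 109.9 CPM and then 84.1, 81.2 and 82.5 CPM in knockout cells, which do not. The difference was -0.37 ± 0.09 SE (edgeR adjusted p = 0.0234). It missed the threshold with library size alone (-0.34, adjusted p = 0.071). It also missed it without any 1 of the 3 knockout controls, knockout camptothecin replicate 2, or parent camptothecin replicate 1 or 3, with adjusted p up to 0.088.

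CDC25C (chromosome 5, 137620953 to 137674043) had the largest difference in exon reads, and it depends on how overlapping reads are counted. It had 21.8, 16.8 and 19.0 CPM in parent controls and 21.1, 21.7 and 21.6 CPM after treatment, against 16.95, 16.75 and 16.4 CPM and then 12.98, 11.23 and 10.84 CPM in knockout cells. Parent groups overlap and knockout groups do not, with a difference of -0.67 ± 0.13 SE (edgeR adjusted p = 0.0049). Its span overlaps that of the gene FAM53C. With reads from stretches unique to CDC25C the parent change turned to -0.27 (adjusted p = 0.035), and the difference of -0.36 missed the threshold (adjusted p = 0.14).

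Parent control replicate 1 bears on these counts. It was above both other parent controls for 49 of the 56 genes and below both for 5, with a median ratio to their mean of 1.23, from 0.81 for CDC25B to 1.67 for NUSAP1. Without it, the difference of responses was called lower for 21 of the 56 and higher for 2, against 9.3% and 5.1% of all genes tested. All 4 genes above stayed among them, with differences from -0.78 (CDC25C) to -0.30 (ESPL1). The genes added with the largest differences were CENPE (-0.57), AURKA (-0.53), NDC80 (-0.51), HMMR (-0.50) and CCNB2 (-0.45), and those higher were SPC24 (0.24) and FOXM1 (0.19). The part of that library's depth or preparation was not tested.

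**Figure D3:**
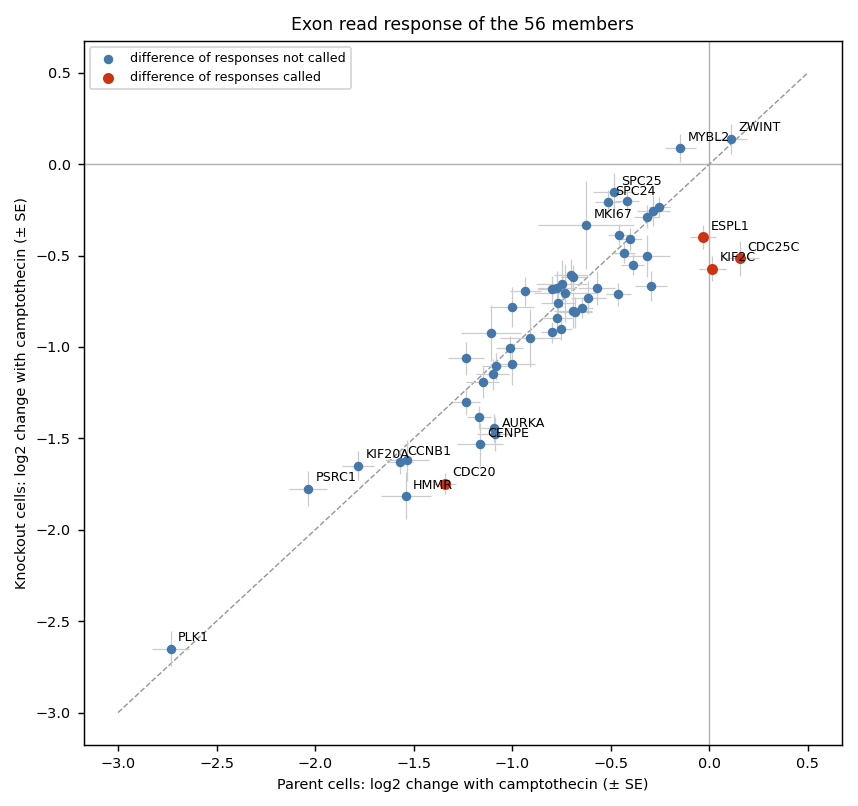
Log2 change of exon reads with camptothecin in parent cells (horizontal axis) and knockout cells (vertical axis) for the 56 genes, with SE bars and a dashed line of equal change. Red points mark the 4 genes whose difference was called (CDC20, CDC25C, ESPL1, KIF2C), which lie below the line, and most other genes lie along it from PLK1 at -2.73 and -2.65 to ZWINT at 0.11 and 0.14.

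Before treatment the genotypes differed in few of these genes. Exon reads were lower in untreated knockout cells for 2 of the 56 and higher for 1, against 7.44% and 8.26% of all genes. KIF18A had 53.7, 40.9 and 42.4 CPM in parent and 36.0, 38.3 and 34.8 CPM in knockout controls (log2 -0.33, edgeR adjusted p = 0.0169), and FOXM1 121.7, 114.4 and 112.9 against 97.7, 103.1 and 100.3 CPM (-0.21, adjusted p = 0.0211). CDC25B was higher, at 72.0, 91.4 and 86.9 CPM against 113.0, 110.7 and 106.9 CPM (0.40, adjusted p = 0.00317). For these 3 genes the genotypes do not overlap. Without parent control replicate 1 the same pair was lower and 9 genes were higher, from TACC3 (0.15) to CDC25B (0.30), against 8.21% and 9.59% of all genes. Without parent control replicate 2 and replicate 3, 9 and 6 genes were lower, against 9.4% and 8.98% of all genes. Without knockout control replicate 1, 2 or 3 it was 0, 1 and 0, against 4.21%, 4.09% and 4.17%.

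Intron reads come mostly from unspliced RNA and were tested the same way over 19908 genes, with CPM here taken over intron reads. In parent cells 48 of the 56 fell and 2 rose, against 14.2% and 12.1% of all genes, with a median log2 change of -0.69. In knockout cells 50 fell and 3 rose, against 9.05% and 7.85%, with a median of -0.62. Among the falls in both genotypes was BIRC5 (-0.45 and -0.39), but 0.0% of its intron reads were unique to the gene. Deep falls were found in PSRC1 (-2.46 in parent and -1.91 in knockout cells), PLK1 (-1.95 and -2.08) and CCNB1 (-1.38 and -1.60). PSRC1 introns were near the floor, with 16 to 24 reads in each treated parent library. Parent controls held 3.16 to 6.03 CPM and treated parent libraries 0.69 to 0.915 CPM (log2 SE 0.30). PLK1 introns went from 22.7, 22.2 and 23.1 CPM to 5.80, 5.76 and 6.04 CPM in parent cells and from 22.6, 26.4 and 24.2 CPM to 5.88, 4.79 and 6.66 CPM in knockout cells. MKI67 introns, unlike its exon reads, passed the test in both genotypes (-0.84 and -0.59, edgeR adjusted p = 1.01e-08 and 4.26e-06), at 113.8 to 133.3 CPM in treated knockout cells against 181 to 187.7 CPM in controls.

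The introns of MYBL2 and SPC25 passed the test upwards in both genotypes, and those of ZWINT in knockout cells. MYBL2 introns (chromosome 20, 42295753 to 42345135) went from 118.2, 161.5 and 164.7 CPM to 241.1, 235.8 and 242.8 CPM in parent cells and from 157.9, 167.7 and 162.5 CPM to 233.5, 232.6 and 211.6 CPM in knockout cells. All treated libraries were above all controls, with log2 changes of 0.70 ± 0.09 and 0.47 ± 0.09 SE (edgeR adjusted p = 6.14e-06 and 0.000989), and 0.56 in parent cells without parent control replicate 1. SPC25 introns rose by 0.30 and 0.44 (adjusted p = 0.0162 and 0.00168). The parent call was lost without parent camptothecin replicate 3 (0.24, edgeR adjusted p = 0.10), and 63.5% of the SPC25 intron reads were unique to the gene. ZWINT introns, at 4.40 to 8.01 CPM, changed by 0.37 in the parent (adjusted p = 0.109) and by 0.54 in the knockout (adjusted p = 0.0303). That knockout call was lost with exon scaling factors (adjusted p = 0.066) and without any 1 treated knockout library or knockout control replicate 1 or 2 (adjusted p up to 0.13), and the parent value was 0.55 (adjusted p = 0.019) without parent control replicate 1.

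The genotype difference in intron reads was called for 1 gene, higher in knockout cells, and for none lower, against 3% and 2.81% of all genes. TACC3 introns went from 115.2, 114.8 and 113.4 CPM to 72.3, 69.9 and 73.2 CPM in parent cells and from 117.3, 123.7 and 117.8 CPM to 95.0, 94.8 and 90.1 CPM in knockout cells. Treated parent libraries were lowest, a difference of 0.32 ± 0.09 SE (edgeR adjusted p = 0.0391) that missed the threshold when any library other than parent control replicate 1 and knockout camptothecin replicate 3 was left out, with adjusted p up to 0.13. In untreated cells introns were lower in the knockout for CDCA8 (-0.36), KIF14 (-0.29) and ECT2 (-0.26) and higher for CDC25B (0.42), which is 3 and 1 of the 56 against 6.43% and 8.17% of all genes. The calls of CDCA8 and ECT2 were lost without knockout control replicate 2 (adjusted p = 0.051 and 0.050), and that of KIF14 with library size alone, without any 1 knockout control and without parent control replicate 1 (-0.19, adjusted p = 0.068).

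Exon and intron changes were compared in each library for 17351 genes. Across the 56 genes they had a Pearson r of 0.79 in parent and 0.87 in knockout cells, as a description, since both come from the same libraries. The exon change was lower than the intron change for 9 of the 56 and higher for 5 in parent cells, against 10.1% and 8.37% of all genes. In knockout cells it was lower for 10 and higher for none, against 5.17% and 1.91%, and for 20 and 1 without parent control replicate 1 (8.69% and 5.26% of all genes). Without any 1 of the 3 knockout controls, knockout camptothecin replicate 2 or 3, or parent camptothecin replicate 2, the lower count was 4 to 6. In parent cells the lower count was 15 without parent control replicate 2, and without parent control replicate 1 the counts were 10 lower and 8 higher (9.48% and 9.88% of all genes).

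The exon change was lower than the intron change in both genotypes for PLK1 (difference -0.78 in parent and -0.57 in knockout cells), KIF20A (-0.70 and -0.80), SPC25 (-0.78 and -0.59), DLGAP5 (-0.40 and -0.52) and TPX2 (-0.40 and -0.47). The TPX2 calls were lost without any 1 treated parent library in the parent, and without any 1 knockout control or treated knockout replicate 2 or 3 in the knockout (adjusted p up to 0.092). The SPC25 knockout call was lost without knockout camptothecin replicate 3 or knockout control replicate 1 or 2 (adjusted p up to 0.085). KIF20A exon reads, for instance, changed by -1.78 and its introns by -1.08 in parent cells, with introns at 25.2 to 31.1 CPM in controls and 12.1 to 15.0 CPM after treatment. For MYBL2 the parent value was -0.85 (edgeR adjusted p = 0.00105) and the knockout value -0.39 (adjusted p = 0.156). CENPA differed by -1.15 and -1.17, but only 26.7% of its intron reads were unique to the gene, and the gene SLC35F6 overlaps it. With reads unique to a gene its introns changed by -1.03 and -0.91, and the exon minus intron difference was -0.29 for the parent (adjusted p = 0.079) and -0.62 for the knockout (adjusted p = 0.0017).

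The exon change was higher than the intron change in parent cells for CDC25C (0.54), KIF2C (0.45), TACC3 (0.36), ESPL1 (0.32) and KIFC1 (0.30). CDC25C, KIF2C and ESPL1 are also genes whose exon response differed between genotypes. Both comparisons hold the same parent exon change, so this overlap is not independent. KIF2C introns went from 80.6 to 83.8 CPM to 58.7 to 63.6 CPM in parent cells, without overlap (log2 -0.43 ± 0.08 SE, edgeR adjusted p = 0.000165), while its exon reads changed by 0.01. In knockout cells its introns changed by -0.66 and its exons by -0.57. ESPL1 introns changed by -0.35 in parent and -0.33 in knockout cells, against -0.03 and -0.40 in exons. With reads unique to a gene the CDC25C value was 0.13 (adjusted p = 0.59), and it was 0.40 (adjusted p = 0.051) without parent control replicate 2. The ESPL1 value missed the threshold without parent camptothecin replicate 1 or 3 (adjusted p = 0.056 and 0.11).

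**Figure D4:**
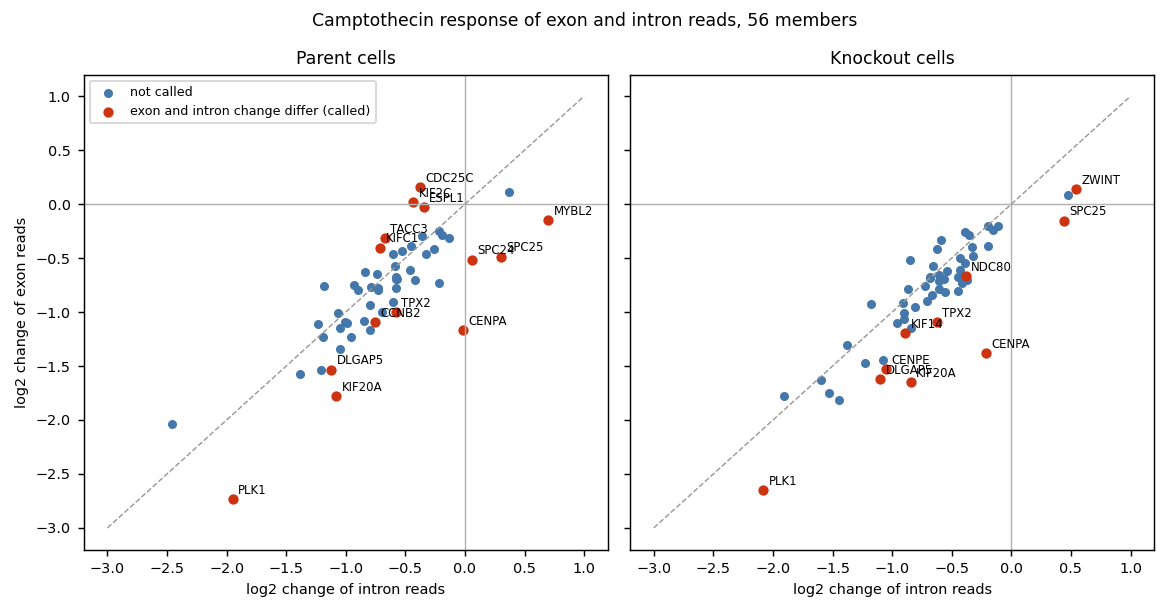
Log2 change with camptothecin of intron reads (horizontal axis) and exon reads (vertical axis) for the 56 genes in parent and knockout cells, with a dashed line of equal change. Red points mark genes whose exon and intron changes differed by the test, such as PLK1 and KIF20A below the line in both panels and CDC25C, KIF2C and ESPL1 above it in the parent panel.

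Other genes of the same processes changed less evenly. Their counts stand against the same background of all genes, 17.1% lower and 16.8% higher in parent and 9.28% and 7.3% in knockout cells. Of 20 condensin and cohesin genes, which shape and hold together chromosomes, 14 fell and 3 rose in parent cells and 13 fell and 1 rose in knockout cells, with medians of -0.35 and -0.29. The cohesin subunits STAG1 (-1.33 and -1.14) and STAG2 (-1.01 and -0.75) and the cohesin protector SGOL2 (-0.80 and -0.84) fell most, while CDCA5 (sororin) rose by 0.56 and 0.25. NCAPH2 (0.42) and ESCO2 (0.25) rose in parent cells, and their difference between genotypes was not called (edgeR adjusted p = 0.504 and 0.945). Of 29 other centromere and kinetochore genes, 11 fell and 6 rose in parent and 8 fell and 4 rose in knockout cells. SKA2 (-0.79) and CENPP (-0.63) fell most in parent cells, and MIS12 (0.52), DSN1 (0.45), CENPM (0.44), SKA1 (0.43), CENPQ (0.41) and CENPL (0.24) rose there.

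Of 17 other genes of the anaphase-promoting complex, 6 fell and 1 rose in parent and 4 fell in knockout cells, with medians of -0.06 and -0.01. ANAPC15 (-0.56), CDC27 (-0.53) and CDC26 (-0.44) fell most in parent cells, and ANAPC2 rose (0.52). Of 12 centrosome genes, 4 fell and 1 rose (STIL, 0.29) in parent and 3 fell in knockout cells, led by CEP55 (-0.76 and -0.65) and CDK5RAP2 (-0.59 and -0.66). Of 6 other kinesins and cytokinesis genes, 5 fell in parent and 6 in knockout cells, among them KIF4A (-0.78 and -0.93), CIT (-0.67 and -0.78) and RACGAP1 (-0.47 and -0.63).

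Of 8 genes that control mitotic entry, 2 fell and 3 rose in each genotype. CCNF, cyclin F, fell by 0.96 and 0.73, and BORA, the Aurora A cofactor that activates PLK1, by 0.72 and 1.11. PKMYT1, the kinase that inhibits CDK1, rose from 62.1 ± 7.52 to 123 ± 1.56 CPM in parent and from 76.9 ± 2.97 to 119.3 ± 5.48 CPM in knockout cells (log2 0.99 and 0.63). CDC25A rose by 0.66 and 0.31 and MASTL by 0.64 and 0.31. Of 10 DREAM and MuvB genes, 2 fell (RBL2, -0.38, and TFDP1, -0.17) and 1 rose (LIN37, 0.83) in parent cells, and 1 fell (RBL2, -0.21) and 1 rose (MYBL1, 0.33) in knockout cells, shares near the background (20% and 10%, then 10% and 10%).

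Genes of the G1/S transition, listed for contrast, went the other way. Of 16, 14 rose and none fell in each genotype, with medians of 0.36 and 0.43. E2F1 rose by 1.11 and 0.75, CDC6, which loads the replicative helicase, by 0.85 and 0.58, and CDT1 by 0.66 and 0.38. The remaining genes of this list, MCM6 (0.06 and 0.17) and RRM2 (0.11 and 0.27), did not pass the test in either genotype.

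**Figure D5:**
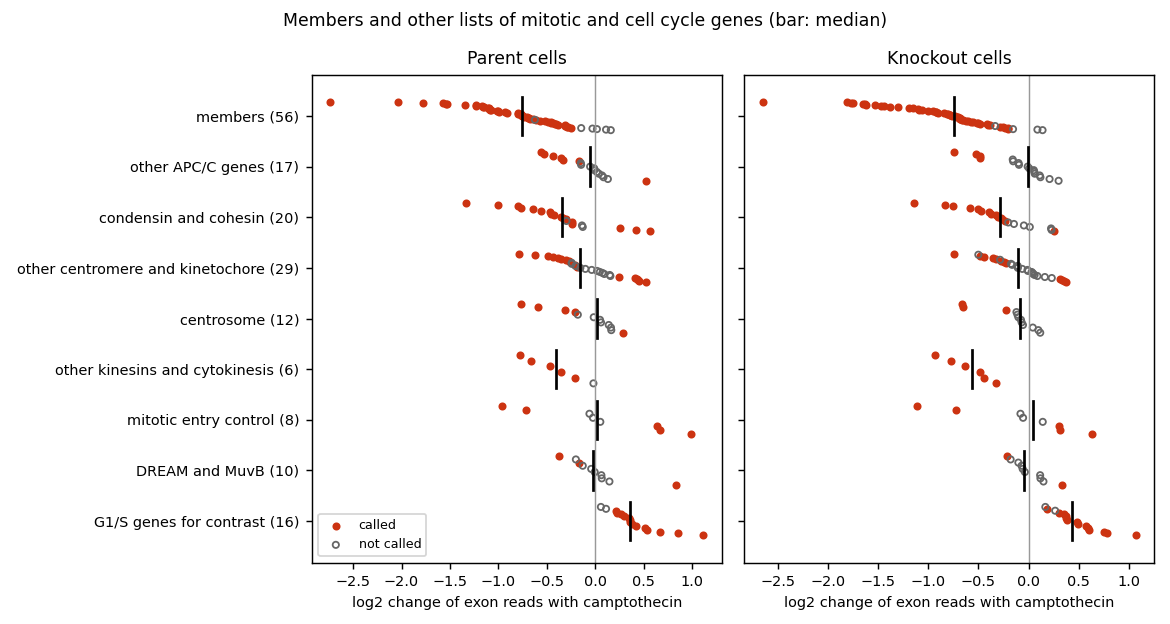
Log2 change of exon reads with camptothecin (horizontal axis) in parent and knockout cells for the 56 genes and 8 other lists (vertical axis, number of genes in brackets), each point a gene, filled where called, with a bar at the median. The 56 genes have medians of -0.75 in both panels, and the G1/S genes lie to the right of 0 with medians of 0.36 and 0.43.

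The 33 genes with TTTGAA in the promoter had median log2 changes of -0.77 in parent and -0.78 in knockout cells. The 15 without TTTGAA had -0.68 and -0.71, given as a description with no test. Genes of this group may still hold a CHR, since forms other than TTTGAA and TTCGAA, and other starts, were not searched. Those 15 include PSRC1 (-2.04 and -1.78) and BUB1 (-1.23 and -1.06), whose promoters hold the variant TTCGAA. PLK1 and ZWINT, whose promoters are printed above, both hold TTTGAA about the same distance from the start and a CCAAT box, and lie near opposite ends of the responses. CCNB1, with no TTTGAA in the window, was among the deepest falls. Other genes differ from these, since HMMR, with 2 matches, fell by 1.54 in parent cells and TACC3, with none, by 0.32. All were picked as examples, and the part of the motif in the response was not tested.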

How the data were processed

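RNA from 12 libraries of CCRF-CEM cells was sequenced as read pairs on 1 run, per the labels' protocols. The deposited tables give, per the file headers, whole-number counts of reads per gene over exons and over introns, with hg19 positions. The submitters' processing notes name Trim Galore 0.6.2, Trimmomatic 0.39, STAR 2.5.4a and Picard 2.9.2. For the counting tool, the annotation and the strand setting, nothing is stated (not given in the sources used here). Reads of overlapping genes may be shared.

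Groups came from the labels. Exon and intron counts were each fitted over all genes with edgeR 4.0.16 in R 4.3.3 (filterByExpr, TMM scaling, robust quasi-likelihood test, all 4 groups in 1 fit), with Benjamini-Hochberg adjusted p below 0.05 as the call. The 4 comparisons were camptothecin against control in each genotype, the difference of these responses (knockout minus parent), and the controls of both genotypes. Exon and intron changes were compared in 1 fit with the library as a block. Common dispersion for exon reads was 0.0137, a biological coefficient of variation of 11.7%. SE was derived from the test. The code was tested on simulated counts. Alternatives were DESeq2 1.42.0, library size alone, no filter, only the groups compared, total gene reads, reads unique to a gene, exon scaling factors for introns, a replicate block and leaving out each library. The intron and exon minus intron fits on reads unique to a gene were added after seeing the data.

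Genes picked for values per library were PLK1, CCNB1 and MKI67, the lowest and highest parent change in each role group, and those called in the difference of responses. The 3 of lowest adjusted p per intron and exon minus intron comparison were added. Of all these, NDC80, BIRC5 and SPC24 are given as log2 changes, and several others as ranges or for some groups. Values of CDKN3, KIF18A, FOXM1, SPC25 and others outside this rule were chosen after their values were seen. Of other lists, up to 3 called genes of largest parent change and those against the list's direction were named. The members and lists were chosen with earlier results of these data known. Up to 32 pseudoautosomal Y entries per table were left out.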

Additional observations from a re-analysis of the deposited data

Results flagged for a closer look

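By the test of the difference itself (edgeR's quasi-likelihood test, knockout minus parent, log2), 5 values of the 56 genes differed between genotypes. In exon reads they were CDC25C (-0.67), KIF2C (-0.59), CDC20 (-0.41) and ESPL1 (-0.37), and in intron reads TACC3 (0.32).

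Among 118 other genes of these processes, 13 responses differed between genotypes in exon reads, 8 of them lower and 5 higher in knockout cells, where 4.47% and 1.84% of all genes were called. The lower ones were LIN37 (-0.68), FZR1 (-0.51), KIF18B (-0.42), CENPL (-0.41), UBE2S (-0.40), STIL (-0.36), CDC25A (-0.36) and E2F1 (-0.36). FZR1, the activator of the anaphase-promoting complex in late mitosis and G1, fell in knockout cells and had a change of -0.01 in parent cells. Higher in knockout cells were CCNE2 (0.56), ANAPC15 (0.47), PDS5A (0.39), PCNA (0.31) and TFDP1 (0.29). CCNE2, cyclin E2, rose by 0.51 in parent and by 1.07 in knockout cells.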

How the results depend on the processing

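Of the calls in the exon responses, 46 of 50 (parent) and 47 of 52 (knockout) held in every alternative in which the gene was tested. In intron reads 45 of 50 and 47 of 53 held. Of the exon differences between genotypes, 2 of 4 (CDC20 and KIF2C) did, of the untreated differences 1 of 3 in exons and 1 of 4 in introns, of the intron difference 0 of 1, and of the exon minus intron calls 9 of 14 and 4 of 10. The cause was not tested for any change given here.

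With library size alone the all-gene medians rose from 0.013 and 0.018 to 0.138 and 0.171, and 2 genes were called higher in the parent and 2 in the knockout exon response, where the median was -0.592. It gave 1 higher exon difference, 1 lower and 7 higher untreated exon calls, 4 higher parent intron calls, 1 lower and 0 higher intron differences, 2 higher untreated intron calls and 1 higher knockout exon minus intron call. Knockout exon calls higher were 1 with only the groups compared and 1 with total gene reads. The lower exon difference count was 7 with no filter, and the higher one 1 with DESeq2 and 1 with reads unique to a gene. Untreated lower exon calls were 7 with no filter, 0 with only the groups compared and 5 with reads unique to a gene. With exon scaling factors, intron differences were 2 lower and 0 higher.

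Leaving out 1 library at a time gave 48 to 50 lower and 0 to 2 higher parent exon calls, 49 to 52 and 0 to 1 in knockout cells, 3 to 21 and 0 to 2 for the difference, and 0 to 9 and 1 to 9 untreated. The exon medians ran from -0.827 to -0.621, -0.760 to -0.740, -0.131 to 0.023 and -0.149 to 0.028. Intron calls ran from 45 to 48 lower and 1 to 3 higher, 46 to 51 and 2 to 3, 0 to 2 and 0 to 2, and 0 to 6 and 1 to 2. Exon minus intron calls were 7 to 15 lower and 4 to 8 higher in parent, and 4 to 20 and 0 to 1 in knockout cells. The 21 and the 20 were both without parent control replicate 1.

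Of the values that changed sign, 1 belonged to a call, SPC25 in parent exons (-0.49, and 0.02 with total gene reads). In the parent exon response CDC25C was -0.27 with reads unique to a gene and -0.08 with total gene reads, KIF2C -0.05 with total gene reads, and ESPL1 0.089 with library size alone. SPC25 in knockout exons was 0.26 with total gene reads. Parent introns of CENPA were 0.11 with library size alone, and of SPC24 -0.007 with reads unique to a gene. With 1 library left out, KIF2C ran from -0.032 to 0.059, ESPL1 from -0.096 to 0.014, and CENPA introns up to 0.01.

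Replicate numbers did not pair the libraries (18 correlations of deviations over 12054 genes, from -0.156 to 0.295, 3 above 0.1). With the replicate block the exon medians were -0.747, -0.746, -0.051 and -0.071, with 50 and 52 genes lower in the responses and 5 in the difference. No replicate block was run for exon minus intron, where the library was the block.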
